A study of Mus musculus with 5 samples.

Results

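Ribosome biogenesis genes encode the machinery that makes ribosomes, and 44 of them were followed across CD8+ T cells before and after stimulation. The genes were taken by name from the 13911 genes of the table that covers all time points, and each of the 44 was present. In the nucleolus, RNA polymerase I transcribes the long precursor of ribosomal RNA. Small nucleolar ribonucleoproteins then modify it, and assembly factors cut and fold it together with ribosomal proteins into the small and the large subunit. T cells enlarge their nucleoli and make many ribosomes when they leave the resting state, and the transcription factor MYC is known to drive many genes of this machinery.

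Single-cell transcriptomes came from OT-I CD8+ T cells of the strain C57BL/6-Tg(TcraTcrb)1100Mjb/J, whose transgenic T cell receptor recognises the ovalbumin peptide SIINFEKL. The cells, from spleen and lymph nodes, were sorted at 0 h, and at 24 h and 72 h of co-culture with dendritic cells (DCs) pulsed with the peptide. Myeloid-derived suppressor cells (MDSCs) were left out or added, myeloid cells that are known to restrain T cells. All 5 groups share the transgene, and the labels name no culture without pulsed DCs, so stimulation and time in culture cannot be told apart. Each group was 1 library: 2952 cells at 0 h, 1562 at 24 h with DCs, 2247 at 24 h with DCs and MDSCs, 1926 at 72 h with DCs, and 4942 at 72 h with DCs and MDSCs. With 1 library a group there was no replicate and no test, every ratio compares 2 libraries, and a difference between cultures cannot be told apart from one between libraries.

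The deposited values were adjusted whole numbers whose total per cell was nearly constant (13061 to 15988), so the sequencing depth is unknown. Levels were expressed as CPM, the summed value of a gene scaled to a library total of 1000000. A cell at 0 h had a median of 2210 genes above 0, and in the other libraries this median was 3111 to 3621. Of 10 CD8 T cell markers 7 were in the table, and 2 or more were above 0 in every cell. Of the other cell types' lists, 2 or more dendritic cell markers (Batf3, which T cells also express, and Zbtb46) were above 0 in 0, 5, 19, 0 and 21 cells in the order of libraries above, and 2 or more of 5 monocyte, macrophage and MDSC markers in 0, 1, 11, 3 and 6 cells. With only the 15 markers of other types that were above 0 in at most 5% of the cells of every library, the counts were 3, 0, 1, 0 and 1. Across libraries, 110 of 13519 barcode sequences occurred in more than 1 library. Unless stated otherwise, 5 values in a row follow that order: 0 h, 24 h DC, 24 h DC and MDSC, 72 h DC, 72 h DC and MDSC.

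MYC binds the DNA letters CACGTG, known as an E-box, so the promoters of the members were read for it. RefSeq sequences of the assembly GRCm38.p6, from 250 bases before to 50 bases after a transcription start, were held for 39 of the 44 members. Fbl, Npm1, Rrp12, Rrs1 and Bop1 had no entry. CACGTG reads the same on both strands and stood in the window of 10 members (25.6%), against 8.09% of the 27025 genes with a window and 11.6% of the 10165 such genes that are also in the expression table. It occurred upstream of the start in 3 members, the RNA polymerase I subunit gene Cd3eap, the small subunit factor gene Imp4 and the large subunit factor gene Nop2. Their 250 upstream bases are shown because they carry the motif ahead of the start, with CACGTG in capitals, 5′ to 3′ on the strand of the gene.
Cd3eap (GRCm38.p6 chr7:19359484-19359733, minus strand, motif at -218): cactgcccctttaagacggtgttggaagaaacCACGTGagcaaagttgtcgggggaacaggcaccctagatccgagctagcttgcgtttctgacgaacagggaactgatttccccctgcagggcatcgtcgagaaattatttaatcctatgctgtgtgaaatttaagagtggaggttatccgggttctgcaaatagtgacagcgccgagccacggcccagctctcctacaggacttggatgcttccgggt
Imp4 (GRCm38.p6 chr1:34439579-34439828, plus strand, motif at -121): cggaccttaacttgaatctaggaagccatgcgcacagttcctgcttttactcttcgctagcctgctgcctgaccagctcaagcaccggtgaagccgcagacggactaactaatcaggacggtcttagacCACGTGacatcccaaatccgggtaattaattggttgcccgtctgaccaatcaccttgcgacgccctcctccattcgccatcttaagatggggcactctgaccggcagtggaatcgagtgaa
Nop2 (GRCm38.p6 chr6:125131633-125131882, plus strand, motif at -60): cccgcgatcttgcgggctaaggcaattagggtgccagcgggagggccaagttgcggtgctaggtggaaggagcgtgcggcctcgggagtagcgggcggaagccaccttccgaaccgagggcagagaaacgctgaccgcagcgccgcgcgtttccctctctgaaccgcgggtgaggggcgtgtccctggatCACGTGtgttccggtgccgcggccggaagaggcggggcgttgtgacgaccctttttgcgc

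The other 8 sites lay within the first 50 bases after a start, and 30 bases around each are shown so that the flanks of the motif can be compared. Cd3eap has a site on either side of its start.
Cd3eap (GRCm38.p6 chr7:19359446-19359475, minus strand, motif at 21): accccttggatcCACGTGgtgggcagcgtt
Grwd1 (GRCm38.p6 chr7:45830740-45830769, minus strand, motif at 35): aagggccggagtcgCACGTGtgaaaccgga
Ltv1 (GRCm38.p6 chr10:13193092-13193121, minus strand, motif at 29): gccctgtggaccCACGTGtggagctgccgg
Mybbp1a (GRCm38.p6 chr11:72441347-72441376, plus strand, motif at 41): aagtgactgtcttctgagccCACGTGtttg
Pes1 (GRCm38.p6 chr11:3963965-3963994, plus strand, motif at 3): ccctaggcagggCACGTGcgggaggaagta
Tsr1 (GRCm38.p6 chr11:74898092-74898121, plus strand, motif at 25): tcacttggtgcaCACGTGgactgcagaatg
Utp20 (GRCm38.p6 chr10:88826765-88826794, minus strand, motif at 38): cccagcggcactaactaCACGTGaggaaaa
Wdr43 (GRCm38.p6 chr17:71616220-71616249, plus strand, motif at 18): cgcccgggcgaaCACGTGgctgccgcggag

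The related letters CACGCG, or CGCGTG on the other strand, were in 12 of the 39 members (30.8%), against 10.5% of all windows and 19.7% of those of genes in the table. The letters CCGGAAG or CTTCCGG, the core bound by ETS family factors, were in 15 members (38.5%), against 9.93% and 19.7%. TATAAA or TTTATA was in 2 members (5.13%), Dkc1 and Pes1, against 15.7% and 8.51%. The palindromic site of the factor NRF1 was in 0 members, against 1.07% and 2.34%. A match describes the letters of this window and is not a measured binding site.

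All 44 members stood higher in both 24 h libraries than in the other 3. Their highest level was at 24 h with MDSCs for 37 members and at 24 h with DCs alone for 7, and the lowest was at 72 h with DCs for 28, at 0 h for 14 and at 72 h with MDSCs for 2. Shares of all genes with these orders were not computed. Between the 24 h libraries, 4616 of 6726 genes at 10 CPM or more in either were also higher with MDSCs. The members' median log2 ratio there was 0.15, and 0.04 with ribosomal protein and mitochondrially encoded genes left out of the total. Together the members took 0.501%, 1.56%, 1.60%, 0.578% and 0.678% of all adjusted counts. Genes of ribosomal proteins, the products that this machinery assembles, did not follow: they took 45.2%, 38.9%, 33.8%, 38.1% and 39.9%, highest at 0 h.

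**Figure D1:**
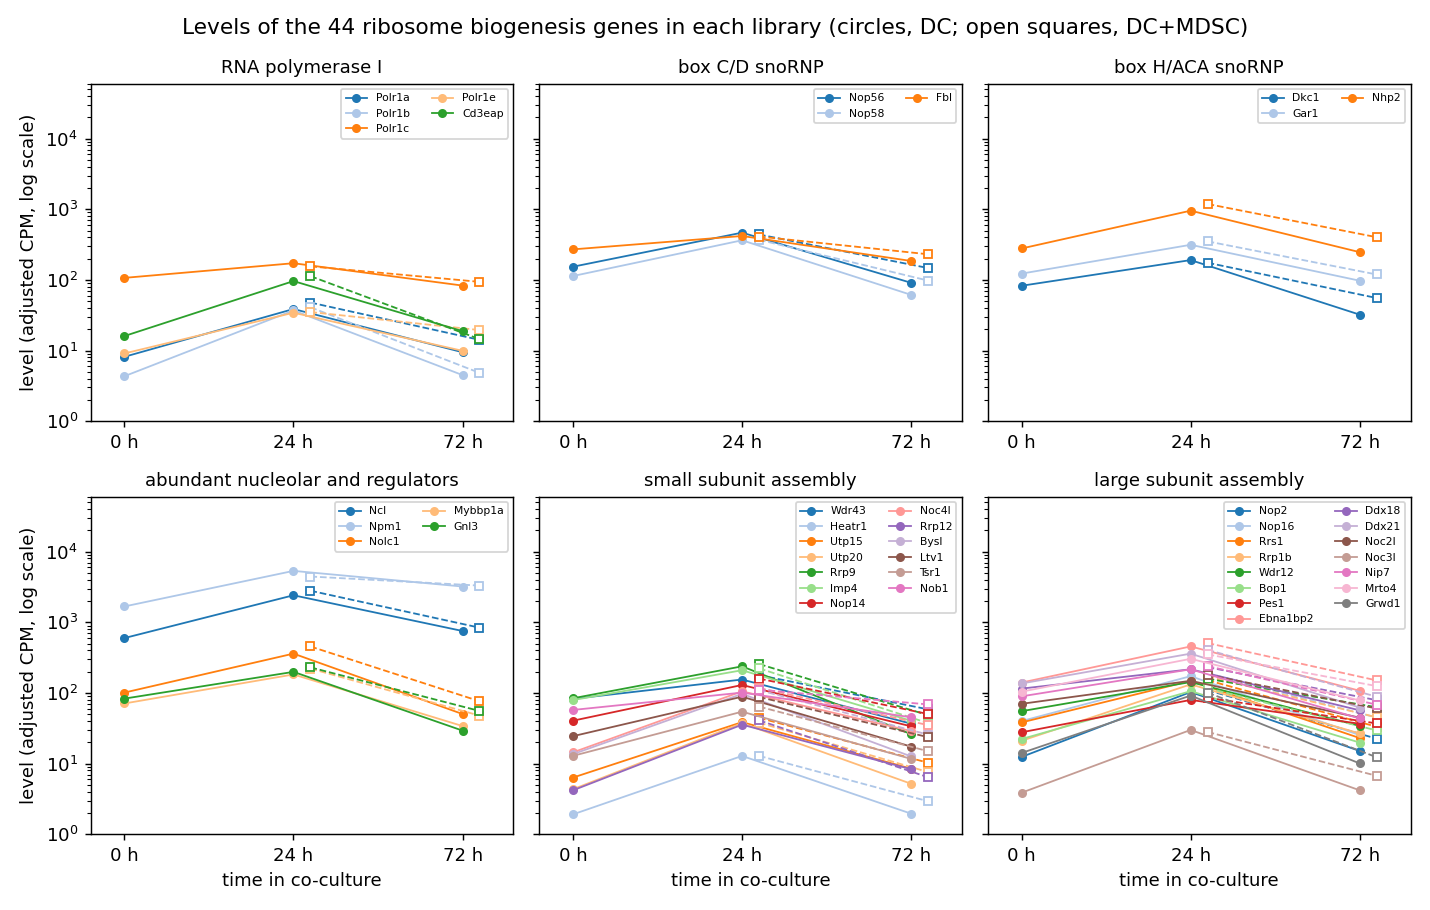
Level of each member (adjusted CPM, log scale) at 0 h, 24 h and 72 h, in 6 panels by role; circles joined by solid lines are the libraries at 0 h and with DCs, open squares joined by dashed lines the libraries with DCs and MDSCs. All 44 genes are highest at 24 h, and the lines of Npm1 drop least from 24 h to 72 h.

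Members were called higher or lower when 2 libraries differed by 1.5-fold or more and the level was 10 CPM or more in either. At 24 h with DCs all 44 members were higher than at 0 h, where 55% of the 7006 genes at that level were called higher and 15.4% lower. The median log2 ratio of the members was 1.74, a 3.34-fold difference, and 0.74 over all genes at that level. Among genes that reached 10 CPM in both libraries the median ratio was 0.43, and relative to it 39 of the 44 members were higher and 0 lower (median 1.31), as were 40.6% and 23.3% of all genes. The widest ratios were those of Utp20, Polr1b and Rrp12. Utp20, a scaffold of the early small subunit precursor, was at 37.4 against 4.33 CPM (log2 3.11), Polr1b, the second large subunit of RNA polymerase I, at 37.0 against 4.33 (3.09) and Rrp12, which accompanies precursors out of the nucleus, at 35.6 against 4.18 (3.09). The narrowest were those of Fbl (0.63), Polr1c (0.69) and Nob1 (0.82).

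Values at 0 h had an unusual form that touches each ratio against that library. For 13 members the variance over cells was below the mean, against 14, 3, 0 and 1 in the other libraries, so this count alone does not set 0 h apart. The lowest variance was 0.52 of the mean (Nip7), against 0.83, 0.94, 1.02 and 0.98 in the other libraries. Above 0 in over 90% of the cells were 14 members at 0 h, and 20, 23, 4 and 4 in the others. Among the 14 members below 20 CPM at 0 h, 6.37% of the values above 0 equalled 1, against 61.0%, 53.6%, 85.5% and 83.5% in the other libraries. Its part in the ratios was not tested. With only the 31 members whose variance was at or above the mean at 0 h, all 31 were called higher at 24 h (median 2.08), as were 55.6% of all genes with such values. The 14 members below 20 CPM at 0 h are all among these 31. This choice therefore leaves out only the members of low variance and cannot check the ratios for the scarcity of values of 1.

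At 72 h with DCs all 44 members were lower than at 24 h with DCs, and 0 were higher. Over 7336 genes 34.8% were called lower and 23.1% higher, with a median log2 ratio of -0.23, while that of the members was -2.31, or 4.96-fold lower. Grwd1, a chaperone of a large subunit protein, was at 10.05 against 91.8 CPM (-3.19). Rrp9, a protein of the small nucleolar particle that guides the first cuts, was at 26.1 against 238 (-3.19), and Polr1b was at 4.49 against 37.0 (-3.04). The narrowest ratios were those of Npm1 (3207.5 against 5342, -0.74), Polr1c (83.1 against 172, -1.05) and Pes1 (36.7 against 79.6, -1.12). Centred on the median of genes that reached 10 CPM in both libraries, -0.22, 43 members were lower and 0 higher. Of all genes 27.2% and 28.4% were.

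The pair of libraries with MDSCs gave a like picture, with 43 of 44 members lower at 72 h than at 24 h and 0 higher. Here 42% of 7125 genes were called lower and 16.9% higher, with a median log2 ratio of -0.41 against -1.90 for the members. Npm1 was the exception at 3308 against 4446 CPM (-0.43). Polr1b was at 4.84 against 41.0 CPM (-3.08), Grwd1 at 12.3 against 101 (-3.04) and Cd3eap at 14.5 against 113 (-2.96). Nob1 (-0.69) and Polr1c (-0.73) lay nearest to Npm1. Centred on the median of genes that reached 10 CPM in both libraries, -0.36, 39 members were lower and 0 higher. Of all genes 27% and 26.5% were.

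**Figure D2:**
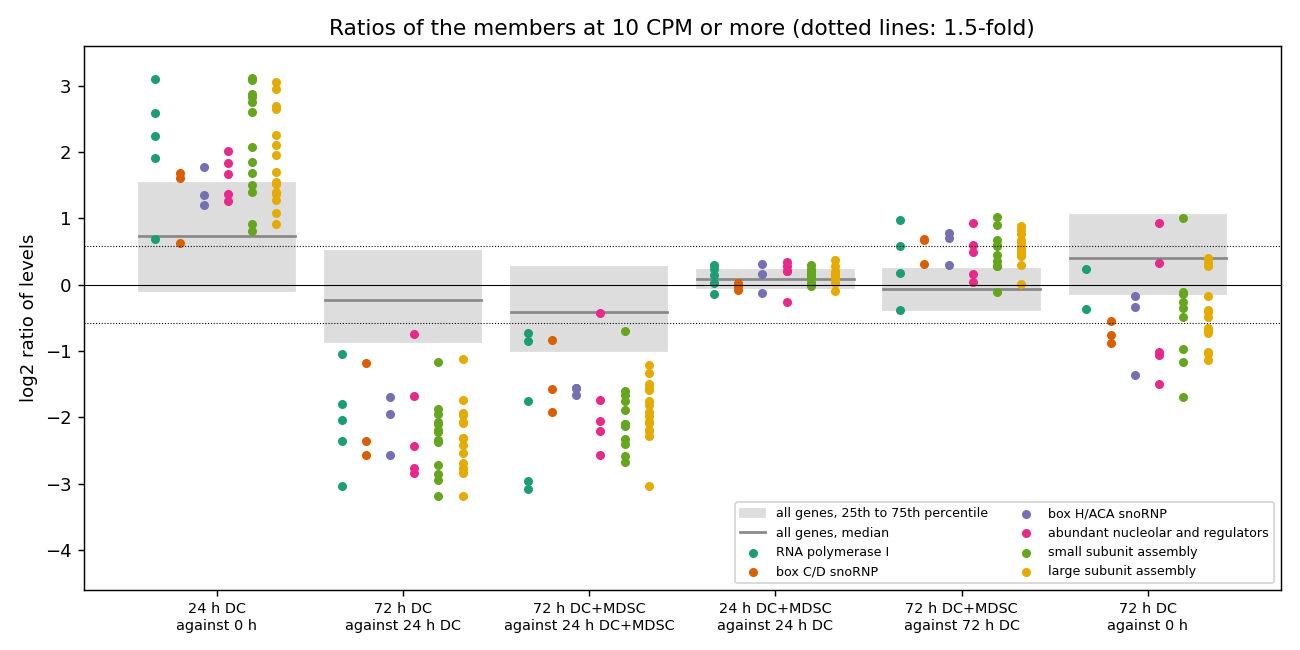
Log2 ratio of levels for each member at 10 CPM or more in either library, in the 6 comparisons, coloured by role, over the 25th to 75th percentile (grey) and median (grey line) of all genes; dotted lines mark 1.5-fold. All members lie above 0 at 24 h against 0 h and below 0 at 72 h against 24 h, all lie within the dotted lines between the 24 h libraries, and 37 of 39 lie above 0 between the 72 h libraries.

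RNA polymerase I was represented by 5 subunit genes. Polr1a, the largest catalytic subunit, was at 8.15, 38.7, 47.8, 9.46 and 14.2 CPM. Polr1b was at 4.33, 37.0, 41.0, 4.49 and 4.84 CPM, with a log2 ratio of 0.05 between 72 h with DCs and 0 h. Cd3eap and Polr1e encode a pair of subunits that act together in the polymerase. Cd3eap was at 16.04, 96.2, 113, 18.8 and 14.5 CPM and Polr1e at 9.09, 34.3, 35.1, 9.91 and 19.5 CPM. The pair differed at 72 h: with MDSCs the log2 ratio to DCs alone was 0.98 for Polr1e and -0.38 for Cd3eap, the lowest of the 39 members at 10 CPM or more. Polr1c, a subunit shared with RNA polymerase III, had the narrowest ratios of the 5 at each time step, with levels of 107, 172, 156, 83.1 and 93.8 CPM.

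The genes of small nucleolar particle proteins had unequal ratios. Fbl, the methyltransferase of the box C/D particles, was at 270.4, 418, 411.1, 185 and 231 CPM. Its core partners Nop56 (154, 467, 439.6, 90.9 and 147 CPM) and Nop58 (113, 364, 370.1, 61.4 and 97.8 CPM) had wider ratios in each step, 1.60 and 1.68 at 24 h against 0.63 for Fbl. In the box H/ACA particles, which convert uridine to pseudouridine, the enzyme gene Dkc1 was at 82.6, 191, 175, 32.2 and 55.4 CPM. Nhp2 was at 278, 955, 1188, 247 and 402 CPM and Gar1 at 123, 314, 351, 97.4 and 119 CPM. For all 6 genes the 72 h library with DCs was lowest, and that with MDSCs lay between it and the 24 h libraries.

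Nucleolin (Ncl) and nucleophosmin (Npm1), the abundant nucleolar proteins, differed from each other after 24 h. Ncl was at 598, 2413, 2799, 753 and 839.6 CPM. Npm1 was at 1675, 5342, 4446, 3207.5 and 3308 CPM. At 72 h with DCs Npm1 stood 0.94 above its 0 h level on the log2 scale and Ncl 0.33 above it, and Npm1 alone made up 33.4%, 34.3%, 27.9%, 55.5% and 48.8% of the adjusted counts of the 44 members. Nolc1, a chaperone of small nucleolar particles, was at 101, 360.3, 455, 50.3 and 76.3 CPM. Gnl3, the GTPase nucleostemin, was at 83.1, 199, 230.2, 29.3 and 55.6 CPM, and Mybbp1a, a regulator of RNA polymerase I transcription, at 70.9, 183, 221, 34.0 and 47.8 CPM. These 3 genes were below their 0 h level in both 72 h libraries.

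Among the 13 small subunit genes the median log2 ratio was 2.08 at 24 h with DCs against 0 h and -2.22 at 72 h against 24 h. Rrp9 was at 84.04, 238, 257, 26.1 and 48.5 CPM. Imp4, a partner of the same early particle, was at 79.2, 210, 223, 40.4 and 37.4 CPM. Bysl, needed for late maturation, was at 13.6, 97.1, 109.8, 12.6 and 25.7 CPM. Nob1, the endonuclease of the last cut of the small subunit RNA, had the narrowest ratios of the 13 at each time step, with 57.4, 101, 111, 45.2 and 68.8 CPM. Noc4l, a partner of Nop14, was at 14.4, 105, 118, 28.9 and 35.0 CPM and stayed 2.00-fold above 0 h at 72 h with DCs. Heatr1, a factor that also supports transcription by RNA polymerase I, was at 1.91, 12.8, 12.9, 1.95 and 2.93 CPM and was above 0 in 1.42%, 18.4%, 18.02%, 2.80% and 4.39% of the cells.

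The 15 large subunit genes had a median log2 ratio of 1.70 at 24 h and -2.31 at 72 h against 24 h with DCs. Ebna1bp2, an early assembly factor, was at 140.2, 455, 508, 107 and 150.5 CPM, and Mrto4, a placeholder for a stalk protein, at 104, 304, 352, 78.3 and 125 CPM. Pes1, Bop1 and Wdr12 form one complex in the cell and did not keep one ratio. Pes1 was at 27.7, 79.6, 85.6, 36.7 and 37.0 CPM, Bop1 at 22.2, 106, 117, 19.8 and 29.4 CPM, and Wdr12 at 55.2, 143, 159, 34.1 and 62.8 CPM. Between the 72 h libraries their log2 ratios with MDSCs were 0.01, 0.57 and 0.88. Nop2, a methyltransferase of the large subunit RNA, was at 12.4, 103, 109, 15.1 and 22.5 CPM. Of the helicase genes, Ddx21 was at 136, 360.1, 407, 62.0 and 88.4 CPM and Ddx18 at 115, 216, 231, 56.7 and 79.0 CPM, both below 0 h at 72 h.

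Between the 24 h libraries the members differed little. Of the 44, 0 were called higher and 0 lower with MDSCs, where 2.14% of 6726 genes were called higher and 1.14% lower. The median log2 ratio was 0.15 against 0.09 over all genes. The members spanned -0.26 (Npm1, 4446 against 5342 CPM) to 0.37 (Rrp1b, 171 against 132), with Nolc1 at 0.34 and Nhp2 at 0.32. Transcripts that resemble the ribosomal RNA precursor (Gm26917, Gm42418 and AY036118) had a summed level of 354, 347, 768, 322 and 499 CPM and so were higher with MDSCs in both pairs. Their relation to the members was not tested.

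At 72 h the members were higher with MDSCs than without. Of 39 members at 10 CPM or more, 16 were called higher and 0 lower, against 8.3% of 6697 genes higher and 14.8% lower. The median log2 ratio was 0.57, or 1.49-fold, where that of all genes was -0.07. Above 0 lay 37 of the 39 members and 2940 of the 6697 genes. Bysl was at 25.7 against 12.6 CPM (1.03), Gnl3 at 55.6 against 29.3 (0.93) and Rrp9 at 48.5 against 26.1 (0.90). Also called higher were Polr1e, Nop56, Nop58, Dkc1, Nhp2, Nolc1, Wdr43, Nob1, Nop16, Rrp1b, Wdr12, Nip7 and Mrto4. The 2 members below 0 were Cd3eap and Imp4 (-0.11), and Pes1 and Npm1 (0.04) were the next. Polr1b, Heatr1, Utp20, Rrp12 and Noc3l were under 10 CPM in both libraries. A call of 2-fold was reached by Bysl only, and in all genes 2.08% were 2-fold or more higher and 5.52% lower.

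The 72 h libraries also differed in cell cycle transcripts. The summed level of 30 G2 and M phase genes was 4663 CPM with MDSCs and 5516 without, and that of Mki67, a proliferation marker, 90.3 and 135 CPM. Below the median summed value of S, G2 and M phase genes lay 53.3% of the cells with MDSCs and 39.1% of those without. Within these cells 27 of 38 members were called higher with MDSCs and 0 lower (median 0.76), where 13.7% of all genes were called higher and 15.6% lower. In the cells at or above that median 7 of 39 were higher and 1 lower (median 0.34), where 7.7% of all genes were higher and 12.5% lower. The direction of the median was the same in both sets, and its size was smaller in the cells of higher cycle value.

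Set against 0 h, the members at 72 h with DCs were mostly at or below the starting level. Of 36 members at 10 CPM or more, 16 were called lower and 2 higher, where 10.4% of 6684 genes were called lower and 42.2% higher. The median was -0.49, against 0.41 over all genes. Rrp9 was at 26.1 against 84.04 CPM (-1.69), Gnl3 at 29.3 against 83.1 (-1.50) and Dkc1 at 32.2 against 82.6 (-1.36), while Noc4l (2.00-fold) and Npm1 (0.94) were higher and Pes1 was at 0.40. Among genes that reached 10 CPM in both libraries the median ratio was 0.20. Relative to it 20 members were lower and 2 higher, as were 15.8% and 34.5% of all genes. Over the whole list 29 of 44 members lay below their 0 h level at 72 h with DCs and 20 at 72 h with MDSCs. At 10 CPM or more in either library, 29 of 36 members and 2101 of 6684 genes were below 0 h at 72 h with DCs. For 72 h with MDSCs the share of all genes was not computed, so the 20 cannot be set against it. All 13 members with the low variance at 0 h were among the 29, and 16 of the other 31. Without these 13, 6 of 23 members at 10 CPM or more were called lower and 2 higher, where 10.3% and 44.5% of all genes with such a variance were, so the count of lower members rests largely on genes whose 0 h values had that form.

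In single cells the summed value of the 44 members separated the 24 h cells from the rest. Its median per cell was 70, 246, 244, 85 and 101 adjusted counts, and the 5th to 95th percentiles were 52 to 91, 161.1 to 309, 188.3 to 307, 57 to 130 and 61 to 153. A median cell had 23.5, 36, 36, 16 and 21 members above 0. At 72 h with DCs 10 of 1926 cells (0.519%, exact 95% interval 0.249 to 0.953%) reached the 5th percentile of the 24 h cells with DCs, 161.1. With MDSCs 154 of 4942 did (3.12%, 2.65 to 3.64%), and 22 (0.445%, 0.279 to 0.673%) reached the 5th percentile of the 24 h cells of their own arm, 188.3. Of the 72 h cells with MDSCs 72.5% (71.3 to 73.8%) were at or above the median of those without, so the difference lay in the bulk of the cells. The intervals cover counting error only.

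**Figure D3:**
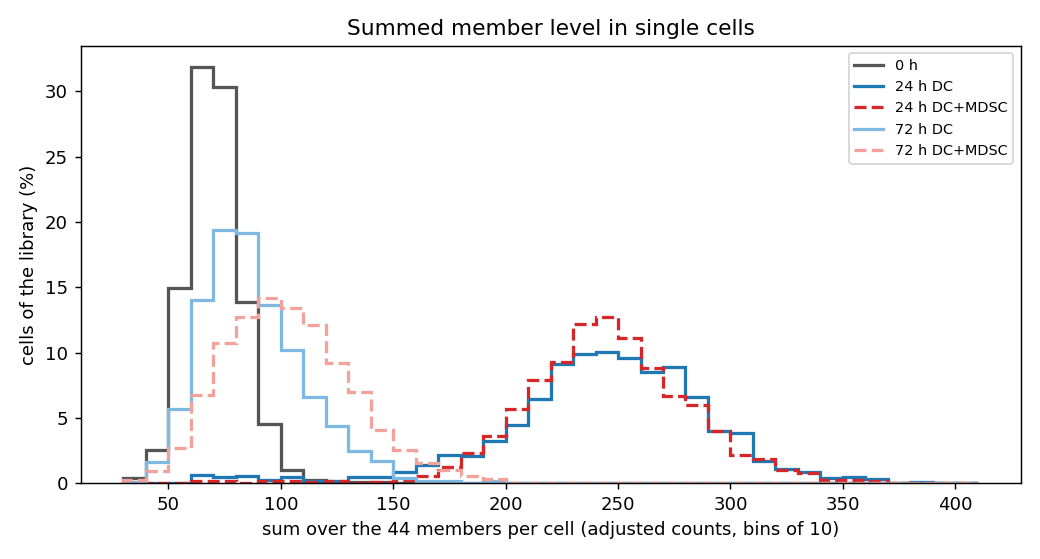
Distribution over cells of the summed adjusted count of the 44 members, as percent of the library's cells in bins of 10 (1 cell, at 27, lies outside them), solid for 0 h and DCs and dashed for DCs and MDSCs. The 24 h curves centre near 246 and 244, the others near 70, 85 and 101, and a small tail of the 24 h curve with DCs lies over the 0 h range.

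A few 24 h cells lay in the range of 0 h, and the reason was not tested. Below the 95th percentile of the 0 h cells, 91, were 27 of 1562 cells with DCs (1.73%, 1.14 to 2.51%) and 8 of 2247 with MDSCs (0.356%, 0.154 to 0.700%). The 27 cells had a median of 2248 genes above 0, against 3592 in the other cells of their library, and Myc was above 0 in 8 of them (29.6%) against 84.3%. In both libraries 0 of these cells had a barcode that also occurred in the 0 h library. The 8 cells with MDSCs had a median of 2370 genes above 0, and Myc was above 0 in 7.

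Within a library the members varied together weakly when taken in pairs. The median correlation over the 946 pairs of members was 0.01, 0.10, 0.05, 0.11 and 0.08. Against the sum of the other members, the median r of a member was 0.09, 0.28, 0.19, 0.25 and 0.24. Ncl followed the sum of the other members most closely in the 4 libraries after 0 h, with r of 0.71, 0.53, 0.44 and 0.56. Npm1 followed it at 24 h (0.48 and 0.46) but had r of -0.01 at 0 h, -0.04 at 72 h with DCs and 0.31 at 72 h with MDSCs. With the sum of the ribosomal protein genes Npm1 had r of 0.19, 0.24, 0.07, 0.39 and 0.04, while the median of the other 43 members was between -0.10 and -0.0029 in every library. The highest r among those 43 was 0.04, 0.12, 0.14, 0.08 and 0.03. At 24 h with MDSCs Npm1 thus lay below the highest of the other members. At 72 h with MDSCs it lay only just above it (0.0415 against 0.0337). Npm1 was singled out here after its values were seen. These correlations are over cells that share a library, and the number of genes above 0 had r of 0.16, 0.55, 0.31, 0.39 and 0.38 with the summed members.

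Myc itself was also highest at 24 h, at 39.96, 156, 151, 37.2 and 43.5 CPM, and was above 0 in 27.4%, 83.4%, 84.1%, 34.7% and 41.0% of the cells. Its log2 ratio was 1.97 at 24 h with DCs against 0 h, -2.07 at 72 h against 24 h, and 0.23 with MDSCs against without at 72 h. Across the cells of a library, the correlation between Myc and the summed members was weak: r was 0.08, 0.23, 0.12, 0.15 and 0.17, with the number of cells given above. With the number of genes above 0 held constant it was 0.05, 0.28, 0.18, 0.08 and 0.16. Among cells with Myc above 0 it was -0.093 at 0 h and 0.12 at 24 h with DCs, so its sign at 0 h depended on the cells taken. When Npm1 and Ncl were left out of the sum, r was 0.12, 0.24, 0.08, 0.22 and 0.22. For the mean natural log value over members in place of the sum, r was 0.14, 0.23, 0.07, 0.24 and 0.23. By these measures r at 72 h was about as high as at 24 h with DCs. For single members at 10 CPM or more the median r with Myc was 0.03, 0.08, 0.02, 0.11 and 0.08, and over all genes at that level it was 0.0063, 0.0034, -0.019, 0.031 and 0.0062. At or above the 95th percentile of all genes' r with Myc were 6 of 36, 22 of 44, 10 of 44, 15 of 36 and 27 of 39 members. The members with the highest r were Rrp1b (0.19) and Nop14 (0.15) at 0 h, Ncl (0.21), Nop58 (0.20) and Nop56 (0.20) at 24 h with DCs, Npm1 (0.13) at 24 h with MDSCs, Rrs1 (0.18) at 72 h with DCs and Gnl3 (0.18) at 72 h with MDSCs. These values describe cells of 1 library each.

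**Figure D4:**
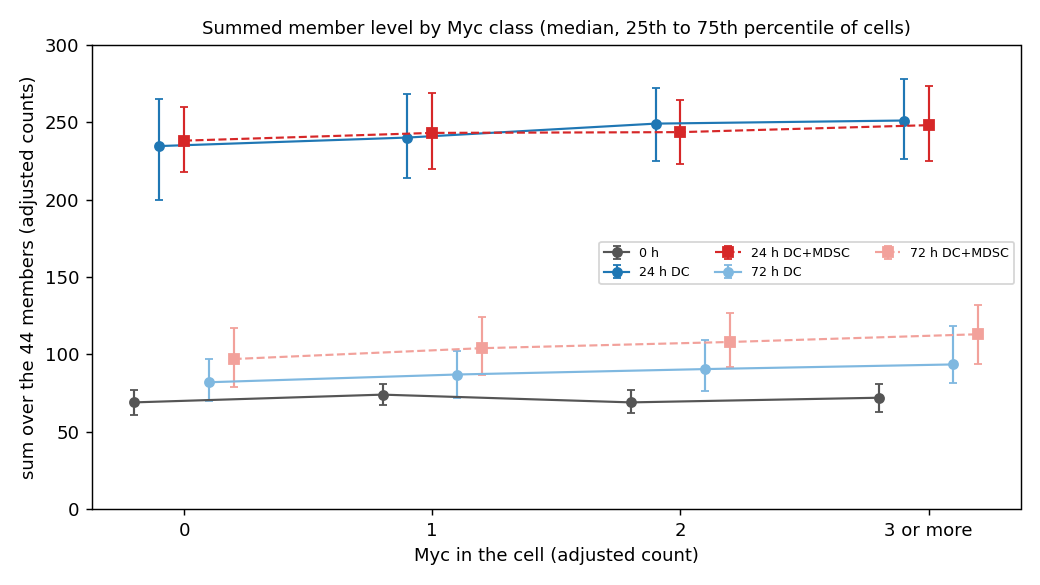
Summed adjusted count of the 44 members (median, bars from the 25th to the 75th percentile of cells) in cells with Myc at 0, 1, 2 and 3 or more adjusted counts, for each library. The lines are nearly flat on this scale, and cells with Myc at 0 at 24 h (234.5 and 238) lie far above cells with 3 or more at 72 h (93.5 and 113).

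The step between time points was present at each Myc value. In cells with Myc at 0 the median summed value was 69, 234.5, 238, 82 and 97, and in cells with 3 or more it was 72, 251, 248, 93.5 and 113. The difference across Myc classes within a library was thus at most 16.5 adjusted counts, and the difference between 24 h and 72 h with DCs in cells with Myc at 0 was 152.5. At 72 h the difference across classes was 11.5 with DCs and 16 with MDSCs. It was thus not small beside the difference between the medians of these 2 libraries, 85 and 101. In cells with Myc at 0 in both libraries, 43 of 44 members were called higher at 24 h with DCs than at 0 h (median 1.74), where 54.8% of all genes were. Between the 72 h libraries 19 of 38 were higher with MDSCs (median 0.59), where 10.1% of all genes were higher and 14.5% lower. A value of 0 for Myc in a cell does not show that the cell lacked its RNA.

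Members with and without an E-box in the promoter window had overlapping ratios. At 24 h with DCs against 0 h the median log2 ratio was 1.97 for the 10 members with CACGTG and 1.68 for the 29 without, at 72 h against 24 h it was -2.37 and -2.19 with DCs and -2.25 and -1.75 with MDSCs, and at 72 h with MDSCs against without 0.40 and 0.60. Cd3eap, Imp4 and Nop2, the members with the motif ahead of the start, had ratios of 2.58, 1.40 and 3.05 at 24 h. The median r with Myc across cells was 0.07 and 0.09 at 24 h with DCs. Both sets of members span wide and overlapping ranges, 0.91 to 3.11 and 0.69 to 3.09 at 24 h.

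The wider machinery was read from a list of 134 further ribosome biogenesis genes, of which 125 were in the table. At 24 h with DCs 105 of 123 measured were higher than at 0 h and 1 lower (median 1.58), and at 72 h with DCs 104 were lower than at 24 h and 1 higher (-1.60). The widest ratios at 24 h were those of Naf1, an assembly factor of box H/ACA particles (43.5 against 3.58 CPM), Nol10 (46.6 against 4.60) and Znhit3 (80.7 against 11.5). Gltscr2, a large subunit factor now named Nop53, was the one called lower, at 256 against 624 CPM. At 72 h Ppan, a large subunit factor, was at 20.8 against 220.4 CPM, Rbm19 at 4.73 against 36.7 and Tsr2 at 7.41 against 57.2, while Exosc8, a subunit of the RNA exosome, was the one higher at 251 against 143. With MDSCs against without, 0 of 123 were called in either direction at 24 h, and 25 of 112 were higher and 1 lower at 72 h (0.36). Brix1 (88.0 against 39.6 CPM), Mak16 (105 against 47.9) and Exosc1 (log2 1.04) led these, and Nufip1, an assembly factor of box C/D particles, was lower at 29.0 against 43.9. Ribosomal protein genes gave 5 of 95 higher and 26 lower at 24 h against 0 h (median -0.22), and 1 higher and 1 lower between the 72 h libraries.

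Introns of several members also carry genes of small nucleolar RNAs, the guides that the particles use. In GENCODE release M21 (GRCm38) 7 of the 44 members (15.9%) enclose 21 such genes, against 200 of 13437 genes of the table (1.49%). Nop56 (chr2:130274430-130279313, plus strand) holds 5, Nop58 (chr1:59684971-59719044, plus strand) 4, and Ncl (chr1:86344719-86359400, minus strand), Gnl3 and Wdr43 hold 3 each. Of the 44 members 20 share exon bases with a gene on the opposite strand, such as Cd3eap with Ercc1 and Bysl with Ccnd3. The sources used here do not say whether counting used strand, so reads of such a pair may not be told apart.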

How the data were processed

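Sorted cells were run on the 10x Genomics droplet platform, per the labels' protocols. The submitters' processing notes list Cell Ranger 2.0.1, Seurat and the build mm10, with no settings. The authors deposited natural log values, and exp(value) - 1 gave back a whole number for each gene and cell. The sources used here do not say how these numbers were adjusted. They are not molecule counts, so no count model, thinning or doublet caller was used. The library of each cell came from the deposited cell annotation.

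The members, gene lists, comparisons and promoter motifs were chosen with earlier results of these data known. Adjusted counts were summed per gene and library and scaled to 1000000 (CPM). Ratios were computed in 6 comparisons. In each comparison the 3 members with the highest and the 3 with the lowest ratio at 20 CPM or more were named, as was the member of highest level in each role. The genes named from the wider list come from the same ranking. Correlations across cells are Pearson's r of natural log values. Intervals of cell shares are exact 95% binomial (Clopper-Pearson). The calculation was tested on simulated data. Alternatives were levels from the mean natural log value, a total that leaves out mitochondrially encoded and ribosomal protein genes, centred ratios, other minimum levels, 2-fold calls, the authors' tables of single time points, and cells without markers of other types. Chosen after seeing the data were genes of variance at or above the mean at 0 h, cells with Myc at 0, cells split at the median cycle value, a sum without Npm1 and Ncl, and the mean natural log value over members for the correlation. Analyses used Python 3.11.15 with numpy 2.4.6, scipy 1.17.1 and pandas 2.3.3.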

Additional observations from a re-analysis of the deposited data

How the results depend on the processing

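Over 23 results 196 alternative values were computed. No median changed sign, and of the correlations only that at 0 h did. A reversal was not defined for counts. All 54 medians moved by under 1.5-fold, though a change to 2-fold calls cannot move a median. Of 108 counts 99 stayed within 1.5 times, and 32 of 34 correlations moved by under 0.1. Many of the 99 were counts of 0 that stayed at 0, and a count of 0 at 1.5-fold cannot rise with 2-fold calls. The 99 therefore overstate how firm the counts are. At 72 h with MDSCs against without, 16 members called higher became 1 with 2-fold calls, 27 in cells below the median cycle value and 7 in those at or above it, where 1 was lower. At 72 h with DCs against 0 h, 2 higher members became 5 when levels were means of the natural log values, 1 at a minimum of 50 CPM and 1 with 2-fold calls. The 16 lower members became 9 with 2-fold calls and 6 among genes of variance at or above the mean at 0 h, where fewer genes enter (23 in place of 36). The cause of the other moves was not tested. The correlation with Myc was -0.093 at 0 h and 0.125 at 24 h with DCs among cells with Myc above 0. No paired analysis was possible because each group was 1 library.

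With 1 library a group no ratio has a replicate check, and the adjustment of the values hides the depth. Counts of members near 1.5-fold are therefore less firm than the medians and directions.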

Other observations

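Genes other than the members that followed the summed members across cells were read after their values were seen, and no test was run. Ran, the GTPase of nuclear transport, had r of 0.67, 0.47, 0.49 and 0.53 with the sum in the 4 libraries after 0 h, and 0.53, 0.42, 0.36 and 0.44 with the number of genes above 0 held constant. Eif5a, a translation factor that carries hypusine, had r of 0.60, 0.36, 0.50 and 0.55. The chaperone genes Hsp90aa1 (0.61, 0.45, 0.47 and 0.59) and Hspd1 (0.62, 0.38, 0.46 and 0.51) also stood among the 8 highest in each of these libraries. Itm2b, a membrane protein gene, was among the 8 lowest in each (-0.54, -0.34, -0.47 and -0.38). At 72 h with DCs the lowest were Cd3d (-0.52) and Cd52 (-0.51). Ms4a4b and Cd3g, membrane protein genes of T cells, had r of -0.47 and -0.48 there. At 0 h the lowest were ribosomal protein genes, led by Rpl37a (-0.23), and the highest r was 0.25, for Mt2 and for Srm, the spermidine synthase.

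Srm followed the members in level as well, at 126, 855, 1040.2, 71.3 and 129 CPM in the 5 libraries, and was 1.81-fold higher at 72 h with MDSCs than without. All correlations here are over cells that share a library and its adjustment.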
